A study of Mus musculus with 12 samples.

Results

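The desaturases and elongases that build polyunsaturated and very-long-chain fatty acids were followed here as mRNA in the liver. They are the 9 genes Fads1, Fads2, Fads3, Fads6, Scd2, Elovl1, Elovl2, Elovl3 and Elovl5, taken by gene symbol from a table of 54532 genes. All 9 passed the filter of a mean of at least 1 FPKM (fragments counted on a gene, divided by its length and by a library total) over all mice, as did 11083 genes in total. Livers came from male C57BL/6J mice that entered the study at 5 weeks of age and then received 1 of 4 diets for 26 weeks, with 3 mice per group. ND-fed mice received a normal diet, control mice a high-fat diet alone, HYA-treated mice the high-fat diet containing 1% HYA, and LA-treated mice the high-fat diet containing 1% LA (linoleic acid). HYA is a gut bacterial metabolite of LA that carries a hydroxyl group where LA has a double bond. No group carried a transgene or a deletion, and the high-fat diet was shared by control, HYA-treated and LA-treated mice. The sample records describe the feed only by diet labels, while the methods of the study name commercial feeds from CLEA Japan for both diets. The content of fatty acids in these feeds was not analysed here.

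LA is an essential fatty acid and the starting substrate of the omega-6 pathway. Fads2 (delta-6 desaturase) introduces a double bond into LA and into its omega-3 counterpart, Elovl5 lengthens the product, Fads1 (delta-5 desaturase) desaturates it to arachidonic acid, and Elovl2 lengthens the longer intermediates on the way to docosahexaenoic acid. Scd2 belongs to the stearoyl-CoA desaturases, which make monounsaturated fatty acids, Elovl1 and Elovl3 extend saturated and monounsaturated chains, and Fads3 acts on sphingoid bases. The substrate of Fads6 is not established. In liver several of these genes, among them Fads1, Fads2 and Elovl5, are known targets of the sterol regulatory element-binding protein SREBP-1c and of the fatty acid receptor PPARα. This is not established for every member. Polyunsaturated fatty acids themselves are known to lower SREBP-1c activity.

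The members lie on 5 chromosomes of the mouse genome build GRCm38. Fads1 (ENSMUSG00000010663, chr19:10182888-10196870, plus strand), Fads2 (ENSMUSG00000024665, chr19:10064164-10101503, minus strand) and Fads3 (ENSMUSG00000024664, chr19:10041548-10059671, plus strand) form a cluster. The starts of Fads2 and Fads1 point away from each other and are 81385 bases apart, and 4493 bases separate the ends of Fads3 and Fads2. Scd2 (ENSMUSG00000025203, chr19:44293676-44306864, plus strand) and Elovl3 (ENSMUSG00000038754, chr19:46131897-46135307, plus strand) lie farther along the same chromosome. Elovl5 (ENSMUSG00000032349) is at chr9:77917364-77984519 on the plus strand, Elovl2 (ENSMUSG00000021364) at chr13:41182381-41220405 on the minus strand, Elovl1 (ENSMUSG00000006390) at chr4:118428093-118432953 on the plus strand and Fads6 (ENSMUSG00000044788) at chr11:115279622-115297663 on the minus strand. The annotated span of Fads1 also holds the microRNA gene Mir6993 on the same strand, and the span of Elovl1 overlaps that of Cdc20 on the opposite strand (1.36 FPKM on average). Whether counting used the strand is not given in the sources used here, so reads of these overlapping pairs may not be fully separated.

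Promoter windows of RefSeq (GRCm38.p6), from 250 bases before to 50 bases after a gene start, were at hand for 6 of the 9 members, namely Fads2, Fads3, Fads6, Elovl1, Elovl2 and Elovl5. The 250 bases before the start are shown for Fads2 and Elovl5, the most abundant desaturase and elongase of the set on the high-fat diet, both of which rose with it. Fads2 is read from the minus strand (chr19:10101504-10101753) and Elovl5 from the plus strand (chr9:77917115-77917364), and capitals mark matches to the motifs searched.
Fads2: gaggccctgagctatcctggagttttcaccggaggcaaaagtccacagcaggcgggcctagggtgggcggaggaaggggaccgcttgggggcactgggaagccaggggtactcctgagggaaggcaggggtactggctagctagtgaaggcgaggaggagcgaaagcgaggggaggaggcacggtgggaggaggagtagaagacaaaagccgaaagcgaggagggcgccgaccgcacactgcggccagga
Elovl5: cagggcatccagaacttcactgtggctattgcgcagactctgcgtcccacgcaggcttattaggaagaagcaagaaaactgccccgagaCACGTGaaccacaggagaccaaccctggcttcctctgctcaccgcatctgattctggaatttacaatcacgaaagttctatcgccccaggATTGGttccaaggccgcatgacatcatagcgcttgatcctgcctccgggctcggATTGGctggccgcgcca
The motifs, searched on both strands, were CACGTG (E-box), CCAAT (NF-Y box), TCACNCCAC (core of the sterol response element), AGGTCA (nuclear receptor core), its head-to-tail repeats with 1 or 4 bases between them (DR1 and DR4, which contain it), TTATGTAA (D-box) and TTCNNNGAA (STAT element). The Elovl5 window held 1 E-box, 161 bases before the start, and 2 NF-Y boxes, at 71 and 17 bases before it. An E-box was present in 7.15% and an NF-Y box in 37.4% of the 32851 mouse promoters of the same length. The Fads2 window held none of the 8 motifs, and both windows of Elovl2 likewise held none. Their letters were rich in G and C, at 67.0% for Fads2 and 84.7% and 76.7% for Elovl2, against a median of 52.7% over all promoters. In the GENCODE M21 annotation Fads2 starts 243 bases farther upstream, so most of its 250 bases lie inside that gene span. Bases upstream of the window were not searched. Fads3 held 2 NF-Y boxes, the first Elovl1 window 1 NF-Y box, the second Elovl1 window 1 nuclear receptor core and Fads6 2 such cores, found in 16.3% of promoters.

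The libraries held 17169064 to 25220880 fragments on genes, so sampling of fragments was not limiting for most members. Even Fads3, the least abundant of the set, was counted 52 to 112 times per mouse, and Fads2 5627 to 45854 times. The fragment total by which the deposited values had been scaled was 0.917 to 0.953 times the fragments on genes in ND-fed mice and 1.03 to 1.1 times in control mice. The values were used as deposited, and the same data rescaled to TPM (which gives every library the same total) moved the median log2 change of all genes between control and ND-fed mice from -0.04 to 0.17. Group differences were tested with limma on log2(FPKM + 1) in 1 fit of all 12 mice, two-sided, with Benjamini-Hochberg adjustment over the 11083 genes, and a gene is said to have risen or fallen where the adjusted p was under 0.05. Every fold change given as log2 is on this scale, which understates changes of genes near 1 FPKM. The sources used here do not say whether the mice of a group shared cages or litters, and the p-values measure the spread between these mice.

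**Figure D1:**
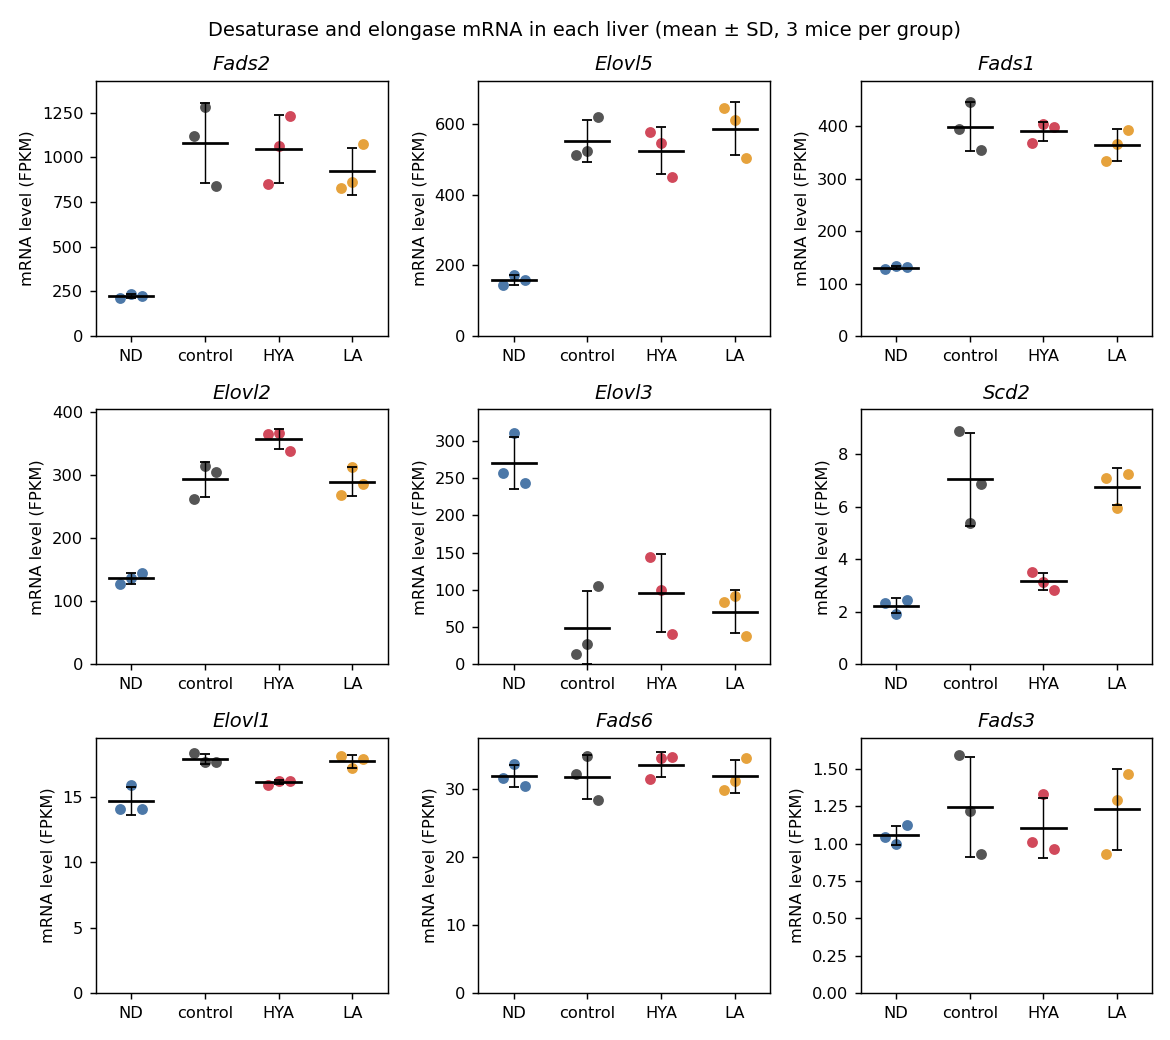
mRNA level in FPKM (vertical axes, from 0) of the 9 genes in each of the 12 livers, by diet group, with points for mice, horizontal bars for group means and error bars for the SD of 3 mice. Fads2, Elovl5, Fads1 and Elovl2 were higher in every mouse on a high-fat diet than in every ND-fed mouse, Elovl3 was lower, and Scd2 in HYA-treated mice (2.84 to 3.50 FPKM) lay below control mice (5.37 to 8.88 FPKM).

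In ND-fed mice Elovl3 was the most abundant of the 9 mRNAs (270 ± 35.3 FPKM, mean ± SD, n = 3), followed by Fads2 (224 ± 10.1 FPKM). Elovl5, Elovl2 and Fads1 came next with 158 ± 14.8, 137 ± 8.73 and 131 ± 3.32 FPKM, and the ranges of neighbours in this order overlapped for these 3 genes. Fads6, Elovl1, Scd2 and Fads3 were lower, at 32.0, 14.7, 2.23 and 1.06 FPKM on average. In each of the groups on the high-fat diet the order was Fads2, Elovl5, Fads1, Elovl2, Elovl3, Fads6, Elovl1, Scd2 and Fads3. Neighbours in that order had ranges that did not overlap, other than Elovl3 and Fads6 in control mice. Levels of different genes are compared here per length, and the length in the deposited table for Fads2 was 1508 bases, against 3295 bases of merged exons in the GENCODE M21 annotation. With the deposited fragments divided by M21 lengths, added after seeing the data, Fads2 in control mice averaged 494 instead of 1080 FPKM. It then lay below Elovl5 (552 FPKM), and Fads1 (287 FPKM) lay below Elovl2 (294 FPKM). Both pairs changed places in HYA-treated and LA-treated mice as well, and in ND-fed mice Fads2 (103 FPKM) then lay below Elovl5 and Elovl2. Fragments were not recounted over the M21 exons, and the M21 span of Fads2 runs 1399 and 243 bases beyond the deposited span. The order of levels under that annotation was therefore not tested. Comparisons of 1 gene between groups do not depend on its length.

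The first comparison, control against ND-fed mice, shows how the pathway stood after a long high-fat diet. The enzymes that act on LA and its products rose together, with Fads2 4.82-fold, Elovl5 3.48-fold, Fads1 3.06-fold and Elovl2 2.15-fold higher as ratios of group means, and Scd2 was 3.16-fold higher at a low level. Elovl3 fell to 0.182 of its mean in ND-fed mice. Elovl1 rose slightly, and Fads3 and Fads6 did not pass the test. In all, 6 members rose and 1 fell of 9, where 16.2% of all genes tested rose and 19.1% fell (35.3% together). With an absolute log2 change over 1 as well, the cut the study used for its gene categories, 6 of 9 members and 3.88% of all genes were called. The ranges of the groups did not overlap for 7 members, as for 45.6% of all genes. The median log2 change was 1.10 over the members and -0.04 over all genes. With TPM the same 7 members were called, and 34.2% of all genes rose and 6.6% fell.

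Fads2 was at 215, 235 and 223 FPKM in the ND-fed mice and at 1118, 1284 and 839 FPKM in the control mice. Every control mouse was far above every ND-fed mouse, and the control mice varied more (coefficient of variation 20.8% against 4.51%). Its log2 fold change was 2.24 (SE 0.17, adjusted p = 6.57e-06 with limma and Benjamini-Hochberg adjustment). Fads1, which acts after Fads2 in the pathway, was at 127, 134 and 131 FPKM in ND-fed and at 396, 447 and 356 FPKM in control mice. The groups stood far apart, and the log2 fold change was 1.60 (SE 0.09, limma adjusted p = 8.01e-07).

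Scd2 was at 2.34, 1.91 and 2.44 FPKM in ND-fed mice and at 8.88, 5.37 and 6.87 FPKM in control mice. All control mice were above all ND-fed mice, and the log2 fold change was 1.30 (SE 0.14, limma adjusted p = 7.6e-05). Its neighbour Scd1, the main stearoyl-CoA desaturase of mouse liver, was far more abundant, at 3421 to 4549 FPKM in ND-fed and 6521 to 7536 FPKM in control mice. The 2 remaining desaturases did not pass the test. Fads6 was at 30.5 to 33.8 FPKM in ND-fed and 28.4 to 34.9 FPKM in control mice, with ranges that overlapped fully (log2 difference -0.01, 95% interval -0.19 to 0.17, limma adjusted p = 0.949). With TPM this difference was 0.23 (limma adjusted p = 0.0534). Fads3 was at 1.00 to 1.12 and 0.930 to 1.59 FPKM (log2 difference 0.12, limma adjusted p = 0.491).

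Among the elongases, Elovl5 was at 144, 174 and 157 FPKM in ND-fed mice and at 512, 524 and 620 FPKM in control mice. The groups did not overlap, and the log2 fold change was 1.79 (SE 0.12, limma adjusted p = 4.04e-06). Elovl2 was at 128, 137 and 145 FPKM in ND-fed and at 263, 315 and 305 FPKM in control mice, again without overlap (log2 fold change 1.10, SE 0.08, limma adjusted p = 7.38e-06). Elovl1 was at 14.1, 15.9 and 14.1 FPKM in ND-fed and at 18.4, 17.7 and 17.7 FPKM in control mice. This was the smallest change that passed the test, with a log2 fold change of 0.27 (SE 0.05, limma adjusted p = 0.00296), or 0.52 with TPM.

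Elovl3, whose mRNA is known in mouse liver to be higher in males and to vary with the time of day, was at 257, 310 and 243 FPKM in ND-fed mice and at 14.6, 28.0 and 105 FPKM in control mice. Control mouse 3 stood well above the other 2, and all 3 were below the ND-fed mice. The log2 fold change was -2.89 with a wide error (SE 0.65, limma adjusted p = 0.00588).

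**Figure D2:**
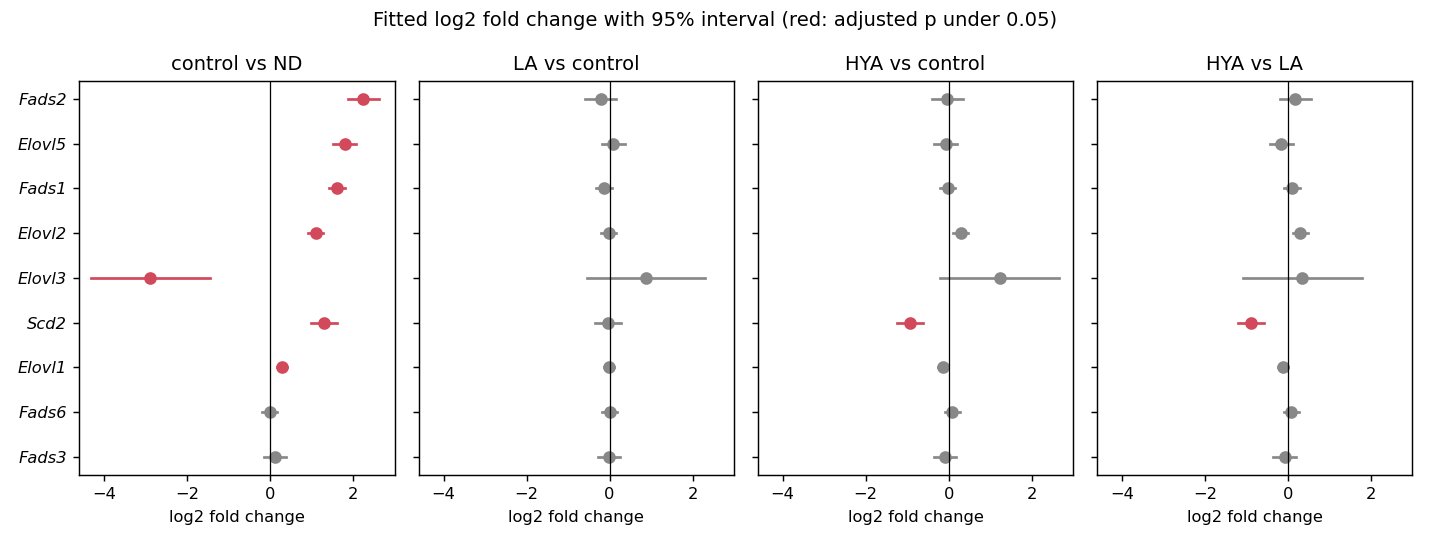
Fitted log2 fold change of each gene (horizontal axes, log2 of FPKM + 1) with its 95% interval for control against ND-fed mice, LA-treated against control mice, HYA-treated against control mice and HYA-treated against LA-treated mice, in red where the adjusted p was under 0.05. Most genes moved in the first panel (Fads2 2.24, Elovl3 -2.89), none in the second, and Scd2 (-0.93 and -0.90) in the other two.

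The comparison of HYA-treated with control mice asks whether the supplement changed these mRNAs on a high-fat diet. Scd2 fell to 0.449 of its mean in control mice and was the only member that passed the test. Fads1, Fads2 and Elovl5, which the high-fat diet had raised, stood at 0.951 to 0.977 of their control means. The count was thus 0 higher and 1 lower of 9 members, against 1.23% of all genes that fell and 2.8% called in either direction, and the median log2 difference was -0.04 over the members and 0.02 over all genes. Ranges did not overlap for Scd2, Elovl1 and Elovl2, where 21.6% of all genes had ranges that did not overlap.

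Scd2 was at 3.50, 3.15 and 2.84 FPKM in HYA-treated mice and at 5.37 to 8.88 FPKM in control mice. The highest HYA-treated mouse was below the lowest control mouse, and the log2 fold change was -0.93 (SE 0.14, 95% interval -1.24 to -0.62, limma adjusted p = 0.0168), or -1.10 with a pseudocount of 0.1. The call was lost without HYA-treated mouse 2 (limma adjusted p = 0.0829) or mouse 3 (limma adjusted p = 0.0549), and in a fit of these 2 groups alone (limma adjusted p = 0.128). Scd1 was at 5302, 4992 and 5298 FPKM in HYA-treated mice, below each control mouse, and did not pass the test (log2 difference -0.40, SE 0.11, limma adjusted p = 0.0888), whereas with TPM it did (-0.53, limma adjusted p = 0.0398), as it did with the total from recovered fragments.

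Elovl2 was at 366, 367 and 339 FPKM in HYA-treated mice and at 263 to 315 FPKM in control mice. All HYA-treated mice were above all control mice, but the log2 difference of 0.28 (95% interval 0.10 to 0.47) had a limma adjusted p of 0.0985. Elovl1 was at 16.0, 16.2 and 16.2 FPKM in HYA-treated mice, between the ND-fed and control means, with a log2 difference from control mice of -0.14 (limma adjusted p = 0.185). With TPM, where the median of all genes was -0.09, its difference was -0.27 (limma adjusted p = 0.0408). For Fads2 (852, 1062 and 1230 FPKM in HYA-treated mice) the groups overlapped, and the 95% interval of the log2 difference ran from -0.41 to 0.33. Fads1 (369, 404 and 398 FPKM) and Elovl5 (577, 547 and 449 FPKM) also overlapped with control mice, with 95% intervals of -0.22 to 0.16 and -0.35 to 0.20. Fads3 (limma adjusted p = 0.773) and Fads6 (limma adjusted p = 0.677) did not pass the test either.

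The bulk samples cannot tell fewer cells of a type from less RNA per cell, which bears on Scd2 in particular because Scd2 is expressed in many cell types. The summed level of 12 markers of stellate cells and fibroblasts was 57.3 to 72.8 FPKM in ND-fed, 119 to 155 in control and 128 to 159 in LA-treated mice, and 98.2 to 116 with HYA. Of these markers 9 rose in control against ND-fed mice, and 4 fell in HYA-treated against control mice. Lrat and Reln did not follow the sum, with means of 4.71 and 3.81 FPKM in ND-fed mice. They averaged 6.99 and 4.84 FPKM in control mice, and more with HYA, at 8.15 and 5.2 FPKM. The other stellate cell and fibroblast markers had HYA means between those of ND-fed and control mice, Des by little (1.37, 1.47 and 1.54 FPKM in ND-fed, HYA-treated and control mice). The summed level of 13 macrophage markers was 251 to 375, 369 to 389, 267 to 370 and 362 to 383 FPKM in ND-fed, control, HYA-treated and LA-treated mice, with 6 of 12 tested markers higher and 2 lower in control against ND-fed mice and 2 lower in HYA-treated against control mice. Cholangiocyte markers summed to 19.3 to 28.1, 78.4 to 172, 39.2 to 53 and 81.8 to 135 FPKM in that order of groups, most of it from Spp1. Among the others, Krt19, Epcam and Sox9 averaged 0.746, 0.898 and 1.88 FPKM in ND-fed mice. They were lower in HYA-treated mice, at 0.654, 0.863 and 1.22 FPKM, whereas Krt7 and Cldn7 were higher in HYA-treated than in ND-fed mice. Like Scd2, the stellate cell and cholangiocyte sums were higher in every HYA-treated than in every ND-fed mouse and higher still in every control mouse, and their part in the result was not tested. The 7 adipocyte markers summed to 14.6 to 20.6 FPKM in ND-fed, 79.2 to 112 in control and 75.4 to 92.7 in LA-treated mice, and 61.7 to 75.2 with HYA, again without overlap between ND-fed, HYA-treated and control mice. Most of that sum was Cidec, a lipid droplet protein, at 8.55 FPKM on average in ND-fed and 85.8 FPKM in control mice. Fabp4 was at 1.63 and 5.77 FPKM, while Adipoq, Plin1, Lep and Retn were at 0.104 FPKM or less in every group. Cfd went the other way, with a mean of 6.54 FPKM on the normal diet against 1.63 FPKM on the high-fat diet alone. With HYA its mean was 3.19 FPKM, and with LA 2.89 FPKM. For control against ND-fed mice, 2 of the 3 tested adipocyte markers were called higher and 1 lower. The part of these genes in the result was not tested either. The hepatocyte markers, at 27900 to 44400 FPKM in sum, fitted the labelled tissue, and 7 of 9 tested fell in control against ND-fed mice.

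LA is the parent compound of HYA and the substrate of Fads2, and LA-treated mice were compared with control mice at the same dose as HYA and against the same control mice. No member passed the test in this comparison with limma and Benjamini-Hochberg adjustment, and neither did any other gene (0%), whereas 294 genes (2.65%) had an unadjusted p under 0.05, none of them a member. The voom fit on recovered fragments likewise called 0 members. The ranges of LA-treated and control mice overlapped for all 9 members, against 7.55% of genes without overlap.

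Fads2 was at 831, 862 and 1074 FPKM in LA-treated mice, all within the range of control mice apart from the lowest, and the 95% interval of the log2 difference from control mice was -0.59 to 0.15. Fads1 was at 334, 366 and 394 FPKM (interval -0.32 to 0.06). Elovl5 was at 646, 612 and 504 FPKM (interval -0.19 to 0.36). Elovl2 at 270, 314 and 287 FPKM and Scd2 at 7.08, 5.95 and 7.25 FPKM lay within the range of the control mice, with intervals of -0.20 to 0.17 and -0.34 to 0.28. The interval of Elovl3 was wide, from -0.55 to 2.31.

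HYA and LA were then set against each other as the only pair of related compounds, both at 1% of the diet for 26 weeks. HYA-treated mice had 0.468 of the mean Scd2 mRNA of LA-treated mice, and the other 8 members did not pass the test. The groups did not overlap for Scd2, 2.84 to 3.50 FPKM against 5.95 to 7.25 FPKM. The log2 difference was -0.90 (SE 0.14, 95% interval -1.21 to -0.58, limma adjusted p = 0.0364). With 1 of 9 members called, the background was 0.487% of all genes, and 0.253% for genes that fell. Leaving out any single ND-fed, HYA-treated or LA-treated mouse took the adjusted p of Scd2 to between 0.0538 and 0.183, and with no filter on low values it was 0.0855 (limma).

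Elovl2 was higher in each HYA-treated mouse (339 to 367 FPKM) than in each LA-treated mouse (270 to 314 FPKM), by 0.30 on the log2 scale (95% interval 0.12 to 0.49, limma adjusted p = 0.107). Elovl1 was lower in each HYA-treated mouse (16.0 to 16.2 FPKM against 17.2 to 18.1 FPKM), by a log2 difference of -0.13 (95% interval -0.25 to -0.01, limma adjusted p = 0.256). These were, with Scd2, the members whose ranges did not overlap, 3 of 9, where 25.2% of all genes did not. For the remaining members the 95% intervals of the HYA-minus-LA log2 difference were -0.09 to 0.29 for Fads1, -0.19 to 0.55 for Fads2, -0.35 to 0.19 for Fads3, -0.11 to 0.26 for Fads6, -0.44 to 0.11 for Elovl5 and -1.09 to 1.77 for Elovl3. Differences of the size seen for Elovl2 thus remained within the interval of Fads2, and no equality of the compounds was shown.

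Both supplemented groups were also compared with ND-fed mice, and these comparisons share the ND-fed mice with the first. In HYA-treated mice 4 of 9 members were higher than in ND-fed mice (16.6% of all genes called, 8.72% higher), namely Fads2 (log2 fold change 2.20), Elovl5 (1.72), Fads1 (1.57) and Elovl2 (1.38), with limma adjusted p values of 1.55e-05 or lower. Scd2 was 0.37 higher on the log2 scale (95% interval 0.05 to 0.68) and Elovl1 0.13 higher, and neither passed the test (limma adjusted p = 0.103 and 0.13). Elovl3 was lower by a log2 difference of -1.67 (limma adjusted p = 0.105, or 0.042 in a fit of the 2 groups alone, where Scd2 also passed with 0.0491), with every HYA-treated mouse below every ND-fed mouse. In LA-treated mice 6 members were higher and 1 lower (31.1% of all genes called, 14.4% higher and 16.6% lower), with Scd2 at a log2 fold change of 1.27 (limma adjusted p = 0.000106) and Elovl3 at -2.01 (limma adjusted p = 0.0367).

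Ratios of consecutive or related enzymes within each mouse are free of differences in library scaling. The ratio of Fads1 to Fads2 mRNA was 0.569 to 0.591 in ND-fed mice and 0.348 to 0.424 in control mice, lower in every control mouse than in every ND-fed mouse. In HYA-treated and LA-treated mice the ratio was 0.324 to 0.433 and 0.366 to 0.424, within or near the control range. The ratio of Elovl2 to Elovl5 was 0.790 to 0.924 in ND-fed, 0.492 to 0.602 in control and 0.417 to 0.570 in LA-treated mice, and 0.633 to 0.755 with HYA. HYA-treated mice thus lay between ND-fed mice and the other 2 groups, with no overlap with any of them. The ratio of Scd2 to Scd1 was 0.000419 to 0.000713 in ND-fed, 0.000823 to 0.00118 in control and 0.000831 to 0.00103 in LA-treated mice, and 0.000536 to 0.000660 with HYA. Here HYA-treated mice overlapped with ND-fed mice and lay below control and LA-treated mice.

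The differences in mean log2 ratio between control and ND-fed mice were -0.64 for Fads1 to Fads2, -0.70 for Elovl2 to Elovl5 and 0.83 for Scd2 to Scd1. Between HYA-treated and control mice they were 0.01, 0.36 and -0.72 in the same order. Between HYA-treated and LA-treated mice they were -0.08, 0.47 and -0.58. Each of the 7 differences without overlap had p = 0.1 in an exact two-sided permutation test, the smallest that 3 mice against 3 can give, and 0.171 after Benjamini-Hochberg adjustment over 12 tests, so no ratio difference passed the threshold or could have done so.

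**Figure D3:**
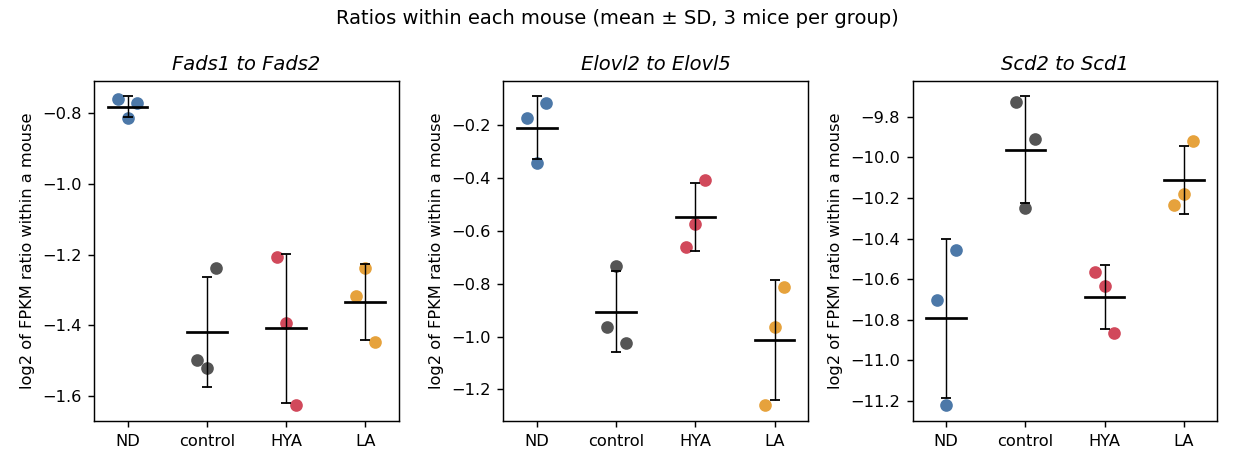
log2 of the FPKM ratio within a mouse (vertical axes) for Fads1 to Fads2, Elovl2 to Elovl5 and Scd2 to Scd1, by diet group, with points for mice and bars for the mean ± SD of 3 mice. Fads1 to Fads2 was lower in every mouse on a high-fat diet, whereas for the other ratios HYA-treated mice (Elovl2 to Elovl5 0.633 to 0.755) stood apart from control mice (0.492 to 0.602).

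Elovl3 varied more among mice on the high-fat diet than any other member. Its coefficient of variation was 99.2% in control mice, 54.9% with HYA, 41% with LA and 13.1% in ND-fed mice. The mRNA of the clock gene Arntl (also called Bmal1) varied among the same mice. Arntl was at 1.73 to 2.04 FPKM in ND-fed mice. It was at 0.210, 0.174 and 3.23 FPKM in control mice 1 to 3, at 1.80, 0.946 and 0.156 FPKM in HYA-treated mice and at 2.78, 2.06 and 0.316 FPKM in LA-treated mice. The mice with Arntl at 0.316 FPKM or less, which were control mice 1 and 2, HYA-treated mouse 3 and LA-treated mouse 3, had Elovl3 at 14.6 to 40.5 FPKM, and the other mice on the high-fat diet had 83.1 to 145 FPKM. Dbp, a clock output gene, was at 41.4 to 57.0 FPKM in those 4 mice and at 4.53 to 45.5 FPKM in the others on this diet, with ranges that overlapped. The hour at which livers were collected is not given in the sources used here.

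A fit with log2(FPKM + 1) of Arntl as a covariate, added after seeing the data, was used to give the members at equal Arntl. Arntl itself was chosen after its values were seen in these same mice, so the adjusted p values of this fit are a description. At these low levels of Arntl, 1 unit on this scale is more than a doubling of its FPKM. Elovl3 had a slope of 1.15 per unit of this covariate (SE 0.15, limma adjusted p = 0.00199), Elovl5 of 0.19 (limma adjusted p = 0.0321), Fads2 of -0.30 (limma adjusted p = 0.0024) and Fads6 of -0.12 (limma adjusted p = 0.033), 4 of 9 members against 6.48% of all genes. In this fit the difference of Elovl3 between control and ND-fed mice was -2.11 on the log2 scale (SE 0.28, limma adjusted p = 0.00031). Its difference between HYA-treated and control mice was 1.20 (SE 0.26, limma adjusted p = 0.0334), close in size to the 1.22 without the covariate, where the error was larger (SE 0.65, limma adjusted p = 0.346). Between LA-treated and control mice it was 0.37 (limma adjusted p = 0.999) and between HYA-treated and LA-treated mice 0.83 (limma adjusted p = 0.135). The call for HYA-treated mice therefore depends on this covariate. For Scd2 the covariate left the difference between HYA-treated and control mice at -0.93 (limma adjusted p = 0.015). For Fads2 and Fads1 it left the differences of HYA-treated from control mice at -0.03 for both.

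**Figure D4:**
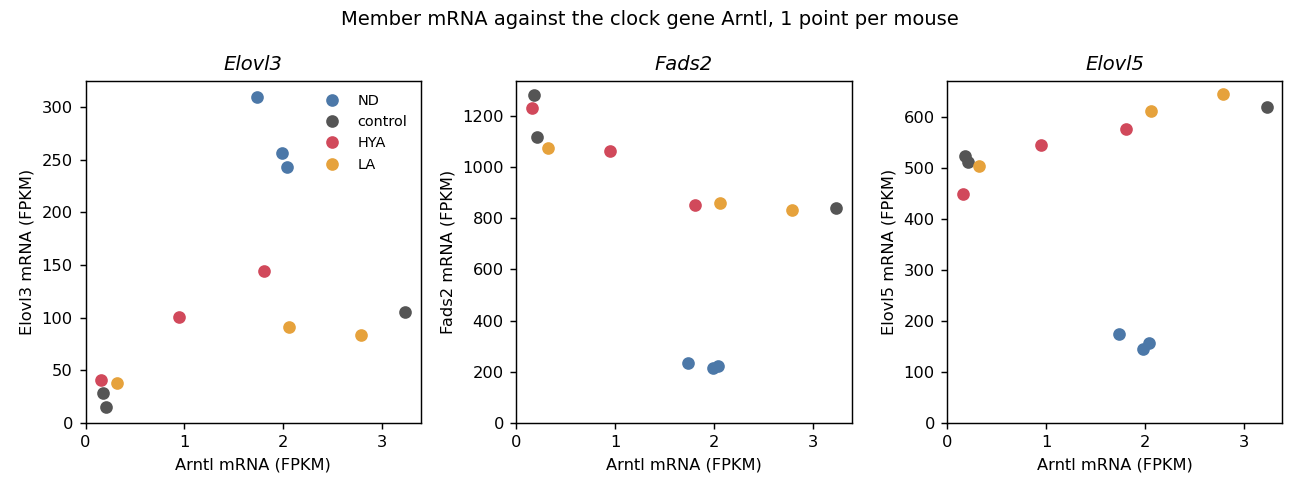
Elovl3, Fads2 and Elovl5 mRNA in FPKM (vertical axes) against Arntl mRNA in FPKM (horizontal axes), with 1 point per mouse coloured by diet group. Among mice on a high-fat diet, those with Arntl at or below 0.316 FPKM had the lowest Elovl3 (14.6 to 40.5 FPKM), and Fads2 was at 1074 FPKM or more in the same mice.

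Genes that work with or around these enzymes were counted in lists chosen by function. In control against ND-fed mice, Elovl6, which elongates palmitate and is the only other elongase that could be tested, rose from 27.0 to 64.5 FPKM (log2 fold change 1.22, limma adjusted p = 0.000191), and Scd1 rose by 0.81 on the log2 scale (limma adjusted p = 0.000389). Of 10 tested partners of the elongation cycle and electron donors, 3 rose and 2 fell (6 and 0 with TPM). Among them the ketoacyl reductase Hsd17b12 rose by 0.40 and the cytochrome b5 reductase Cyb5r3 by 0.34, while cytochrome b5 itself (Cyb5a), which passes electrons to the desaturases, fell by 0.28 on the log2 scale. The Cyb5a call was lost with TPM (-0.04, limma adjusted p = 0.626), with the total from recovered fragments (-0.09) and without ND-fed mouse 2 or 3 or control mouse 1 or 3 (limma adjusted p 0.0505 to 0.0624). Of 11 acyl-CoA synthetases and binding proteins 4 rose, among them Acsl5 (0.67) and Acsl3 (0.81), and 4 fell, among them Slc27a5 (-0.77), so this list moved both ways (6 and 2 with TPM). Over all genes 16.2% rose and 19.1% fell, or 34.2% and 6.6% with TPM, and the counts of the following lists stand beside these shares.

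For the steps beyond the endoplasmic reticulum, 14 genes were listed around peroxisomal chain shortening, the last step to docosahexaenoic acid. Of these 7 rose and 1 fell (median log2 change 0.22, against -0.04 over all genes). With TPM 12 rose and 1 fell (median 0.46, against 0.17 over all genes). The peroxisomal transporter Abcd2 (2.72 to 10.6 FPKM, log2 fold change 1.64, limma adjusted p = 5.59e-08) rose. The listed gene that fell was Pecr, a trans-2-enoyl-CoA reductase, from 156 to 79.7 FPKM (log2 fold change -0.98, limma adjusted p = 0.000153). Its fall is not read here as a fall of chain shortening. Of 7 acyltransferases that place polyunsaturated chains in phospholipids 5 rose and 0 fell with either scaling, with Agpat3 (0.42), Lpcat2 (0.37) and Lpgat1 (0.32) having the lowest p. The call of Lpgat1 was lost without ND-fed mouse 3 or control mouse 1 or 2 (limma adjusted p up to 0.0585) and that of Lpcat2 in a fit of the 2 groups alone (0.0533).

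Among 15 regulators of the desaturase and elongase genes 0 rose and 4 fell, where 19.1% of all genes fell, and with TPM 4 rose and 2 fell. Mlxipl, which encodes the carbohydrate response factor ChREBP, fell from 83.3 to 42.6 FPKM (log2 fold change -0.95, limma adjusted p = 3.27e-05), and Hnf4a (-0.54) and Scap (-0.46), the escort protein of the SREBPs, were also lower. The Scap call was lost with TPM (-0.25, limma adjusted p = 0.0637). Targets shared with SREBP-1c and the liver X receptor moved with the members, 13 of 17 higher and 1 lower (median 0.88, or 15 and 0 with TPM), for example Pnpla3 (0.733 to 9.98 FPKM), Me1 (1.09) and Acacb (1.30). Of 17 SREBP-2 targets 12 rose and 0 fell (median 0.57, or 15 and 0 with TPM), among them Fdps (0.99) and Dhcr7 (1.03). Of 19 PPARα targets 12 rose and 0 fell (median 1.02, or 16 and 0 with TPM), led by Vnn1 (22.8 to 72.4 FPKM, log2 fold change 1.63, limma adjusted p = 3.63e-08), Plin2 (1.32) and Cd36 (1.69). Male-biased liver genes fell, 16 of 17 with 0 higher, and all 7 tested female-biased genes rose, and Elovl3 moved in the direction of the former.

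In HYA-treated against control mice most of these lists had no gene called, while the male-biased list had many. The lists of elongation partners, peroxisomal shortening, acyltransferases, SREBP-1c and SREBP-2 targets, clock genes, other desaturases and other elongases each had 0 genes called, where 2.8% of all genes were. With TPM 1 of 7 acyltransferases, 1 of 2 other desaturases (Scd1) and 2 of 17 SREBP-1c targets fell. Of the 11 acyl-CoA synthetases and binding proteins 3 rose, among them Slc27a5, a bile acid and very-long-chain acyl-CoA synthetase (259 to 349 FPKM, log2 fold change 0.44, limma adjusted p = 0.0389), and Acsl1 (79.6 to 108 FPKM, 0.45, limma adjusted p = 0.0407). Mlxipl rose by 0.43 (limma adjusted p = 0.039). The calls of Slc27a5, Acsl1 and Mlxipl were each lost in 14 of 22 alternatives, among them leaving out any HYA-treated or LA-treated mouse, control mouse 1 or 3 or ND-fed mouse 2 or 3 (for Slc27a5 and Acsl1 also ND-fed mouse 1), with limma adjusted p up to 0.168, 0.182 and 0.159. Against 2.8% of all genes called, 1 of 19 PPARα targets fell, Ucp2 by 0.55 on the log2 scale (limma adjusted p = 0.0205), or 3 of 19 with TPM. Male-biased genes rose in 10 of 17 cases, for example Cyp4a12a (23.7 to 62.4 FPKM, log2 fold change 1.35, limma adjusted p = 0.0168), and 2 of 7 female-biased genes fell (8 of 17 and 3 of 7 with TPM). The calls of Ucp2 and Cyp4a12a were lost without control mouse 1 or HYA-treated mouse 2 and in a fit of the 2 groups alone, and that of Ucp2 also without HYA-treated mouse 3 (limma adjusted p up to 0.139 and 0.13). LA-treated mice had 0 genes called against control mice in every list.

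**Figure D5:**
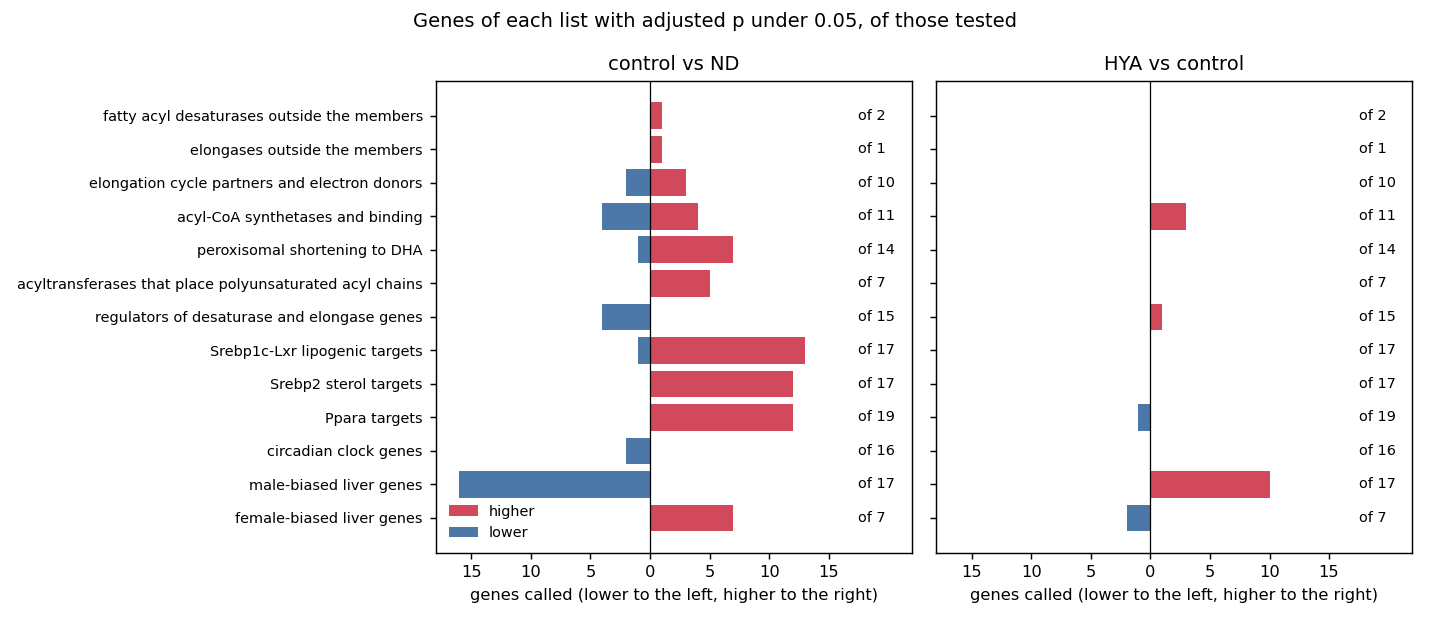
Number of genes of each list with an adjusted p under 0.05 (horizontal axes, lower to the left and higher to the right of 0) in control against ND-fed mice and in HYA-treated against control mice, with the number tested at the right of each row. The SREBP and PPARα target lists rose with the diet (13, 12 and 12 genes), and only the male-biased list had many genes higher with HYA (10 of 17).

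Genes next to the members on chromosome 19 were examined for shared movement. Within 100 kb of the Fads cluster, 6 further genes were tested, of which 3 rose and 1 fell in control against ND-fed mice (4 and 1 with TPM), where 16.2% of all genes rose and 19.1% fell. Those that rose were Fth1 (0.38), Rab3il1 (0.31) and Mir6993 (1.70), the last of which lies inside Fads1, and Myrf fell by 0.59 on the log2 scale. None was called in HYA-treated against control mice with the deposited scaling, and 1 was lower with TPM. Around Scd1 and Scd2, 3 further genes were tested, and Chuk (-0.27) and Cwf19l1 (-0.38) fell while Bloc1s2 (0.02) was not called (0 rose and 1 fell with TPM). None of the tested neighbours outside the members rose as much as Fads1, apart from the overlapping Mir6993.

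Across the 12 mice the genes whose pattern was closest to a member were found by the root mean square difference of log2(FPKM + 1) after centring each gene on its mean. Fads1 was closest to Vnn1 (0.12), from the list of PPARα targets, and to Abcd2 (0.13), from the list of peroxisomal chain shortening. Fads2 was closest to Gpc1 (0.20) and Cgref1 (0.21), Elovl5 to Aqp8 (0.14) and Serpina7 (0.15), and Elovl2 to Dio1 (0.12) and Stap1 (0.14). Scd2 was closest to Tagln2 (0.12) and Endod1 (0.18), whose log2 differences between HYA-treated and control mice were -0.77 and -0.60 (Scd2 -0.93). Elovl1 was closest to Lztr1 (0.03) and Wsb2 (0.04). For Elovl3 no gene was near, the closest being Avpr1a and Car14 (0.64 each).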

How the data were processed

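Paired-end libraries were made from the liver RNA of 12 mice, and per the labels the tools were fastp, HISAT2 2.0.5 and featureCounts 1.5.0-p3 on GRCm38. The authors deposited their values as FPKM, 1 column for each mouse. The methods of the study name TPM, but the columns summed to 342146 to 429286, which TPM would not give. Whole fragments could be recovered from gene lengths and the smallest step of a column for 100% of values above 0 (tolerance 0.05). Members and lists were chosen with earlier results of these data known. Genes averaging 1 FPKM or more were tested with limma 3.58.1 in R 4.3.3 on log2(FPKM + 1), with empirical Bayes and trend, 4 groups in 1 fit and no block. The adjusted p threshold was 0.05, and a second rule added an absolute log2 fold change over 1. The labels do not say that replicate numbers pair mice, and the values showed no clear pairing, which does not exclude it. The correlation of deviations was -0.396 to 0.294 over 18 same-numbered pairs, with 3 over 0.1. Within groups, pairs of mice gave chi-square values of 9.71 to 26.5 for each degree of freedom, so none was a repeat deposit. A total of 3 fragments on a gene of 2 kb, taken as the counting floor, equals 0.0607 to 0.0944 FPKM. All members were named. From each list up to 3 genes called in control against ND-fed mice and up to 2 called with HYA were named by lowest p, of which 2 are not reported here. Dbp, Arntl and the cell type markers given with values were chosen after their values were seen. GENCODE M21 placed 98.33% of the shared identifiers at identical coordinates. Alternatives were TPM, median-ratio factors, no filter or a filter of 0.1 FPKM, a pseudocount of 0.1, voom, a replicate block, the compared groups alone, the fold threshold and leaving out each mouse. The total from recovered fragments, M21 lengths and the Arntl covariate were added after seeing the data.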

Additional observations from a re-analysis of the deposited data

How the results depend on the processing

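Of 1188 values for the members under the alternatives, 1155 kept their side of the threshold, 21 lost a call, 12 gained one and 0 changed direction while called. Differences that were not called could change sign among the 1155. For Fads1 in HYA-treated against control mice the log2 difference ran from -0.15 to 0.06. Counts of members called held in control against ND-fed mice, at 7 without any single mouse and 6 with the fold threshold, where 430 of 11083 genes were called instead of 3910. In HYA-treated against control mice the count was 2 with TPM, 2 with the total from recovered fragments (both adding Elovl1) and 2 with the Arntl covariate (adding Elovl3). It was 0 with the 2 groups alone, where 0 genes were called in all, and 0 with the fold threshold, and it ranged from 0 to 1 when single mice were left out. In HYA-treated against LA-treated mice it was 0 with no filter on low values, 0 with the fold threshold and 0 to 1 when single mice were left out. The counts against ND-fed mice were 4 to 5 for HYA-treated and 6 to 7 for LA-treated mice when single mice were left out. For HYA-treated mice the count was 6 with the 2 groups alone (adding Elovl3, lower, and Scd2, higher), 5 with TPM or the total from recovered fragments (adding Elovl1) and 5 with the Arntl covariate (adding Elovl3). It was 0 for LA-treated against control mice throughout. Elovl3 in LA-treated against ND-fed mice lost its call in 8 of 22 alternatives, with adjusted p of 0.0516 to 0.126. For Scd2 to Scd1 the log2 ratio of FPKM + 1 was 0.49 instead of 0.83 between control and ND-fed mice and -0.38 instead of -0.58 between HYA-treated and LA-treated mice, since the added 1 is large beside the level of Scd2.

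The replicate block gave 7 members in control against ND-fed mice, 1 in HYA-treated against control, 0 in LA-treated against control, 1 in HYA-treated against LA-treated, 4 in HYA-treated against ND-fed and 6 in LA-treated against ND-fed mice, and 13 of 36 mouse and group combinations correlated best with their own number. All genes called in HYA-treated against control mice numbered 310, against 105 with no filter, 497 with TPM and 0 to 653 without single mice. In HYA-treated against LA-treated mice they numbered 54, against 0 with no filter, 165 with TPM, 166 with voom, 258 with the block, 94 with the 2 groups alone or the total from recovered fragments and 0 to 259 without single mice. The cause of these differences in counts was not tested. Depth limited Fads3 most, with 52 to 112 fragments per mouse.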
